A study of Mus musculus with 72 samples.

Results

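The Cyp3a genes of the mouse liver are described here as 1 family, in 72 livers that differed in the hepatic clock gene Bmal1, in the presence of a gut microbiota and in the time of day. The 7 genes Cyp3a11, Cyp3a13, Cyp3a16, Cyp3a25, Cyp3a41a, Cyp3a44 and Cyp3a59 were chosen by name from a table of 55573 genes, and 4 of the 7 were kept because their mean over the 72 libraries was at least 1 CPM, the read count of a gene scaled to 1000000 assigned counts in a library. Those 4 were Cyp3a11, Cyp3a13, Cyp3a25 and Cyp3a59, among 11858 genes of the table at or above that level. The mean CPM was 3302 for Cyp3a11, 605 for Cyp3a25, 219.2 for Cyp3a13 and 52.37 for Cyp3a59. The next members below the limit were Cyp3a44 at 0.224 CPM, Cyp3a16 at 0.1617 CPM and Cyp3a41a at 0.02553 CPM. This mean used no group label, and the levels that chose the members are given as a description only.

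The livers came from male C57BL/6 mice (C57BL/6J in the methods), 3 at each of 6 Zeitgeber times (ZT, hours after lights on in a cycle of 12 h of light and 12 h of dark) in each of 4 groups of 18. All 4 groups carried the floxed Bmal1 allele (Bmal1 fl/fl). Mice without Cre were called wild type (WT), and mice that also carried Albumin-Cre, in which the Albumin promoter drives Cre in hepatocytes, were called liver Bmal1 knockout (LKO). Each genotype was kept either as specific pathogen free (SPF) mice with a microbiota or as germ-free (GF) mice without one, which gave the groups SPF WT and SPF LKO, and GF WT and GF LKO. Per the methods, the SPF mice were bred in a vivarium, and the GF mice were rederived and kept in isolators of a gnotobiotic facility. Microbial status therefore cannot be told apart from colony and housing, and absence of the microbiota below names the comparison of GF with SPF. Albumin-Cre is directed at hepatocytes, whereas each library was made from bulk liver RNA, which also holds RNA of the other liver cells. Whether the 3 libraries of a group and ZT came from separate litters or cages is not in the labels, so p-values measure the spread between these mice. The main fits over all ZT had no term for ZT, so in them that spread also held differences between times of day.

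CYP3A enzymes are monooxygenases of the endoplasmic reticulum that hold heme and take electrons from cytochrome P450 oxidoreductase. In the liver they oxidise a broad range of drugs, steroids and bile acids, and Cyp3a11 is the main form of the adult mouse liver. The nuclear receptors PXR (Nr1i2) and CAR (Nr1i3), which bind as heterodimers with RXR to paired AGGTCA-like half-sites, are known to induce Cyp3a genes, and several microbial metabolites and bile acids are ligands of PXR. BMAL1 is the activating partner of CLOCK in the core clock and binds E-boxes (CACGTG), and the clock-controlled PAR bZIP factors Dbp, Tef and Hlf bind D-boxes (TTATGNAA).

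All 7 genes lie on chromosome 5 (GRCm38). Cyp3a13 (ENSMUSG00000029727, 137892932 to 137921619, minus strand) stands apart from the others. The rest form a cluster of 676979 bases from Cyp3a16 to Cyp3a59, in which Cyp3a11 (ENSMUSG00000056035, 145854426 to 145879964, minus strand) is followed by Cyp3a25 (ENSMUSG00000029630, 145977194 to 146009618, minus strand) and Cyp3a59 (ENSMUSG00000061292, 146079257 to 146113287, plus strand). Cyp3a25 and Cyp3a59 point away from each other across 69638 bases. Of the 50-base stretches of their transcripts, the length of a read here, 93.3% were found in no other Cyp3a gene for Cyp3a11, 100% for Cyp3a13, 73.2% for Cyp3a25, 70% for Cyp3a59 and 1.39% for Cyp3a41a. Reads that matched several places were not counted, so Cyp3a41a could hardly gain counts of its own, and the annotation lists Gm15502 as overlapping Cyp3a13, with 434 counts against 303137 for Cyp3a13.

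The promoters of the 4 members are shown because Cyp3a11, Cyp3a25 and Cyp3a59 fell in the GF groups below and edgeR called no change of Cyp3a13 there. Each runs from 250 bases before to 50 bases after the transcript start, 5′ to 3′ on the strand of the gene (RefSeq, GRCm38.p6), and all 7 genes had a match in that table. In the first pair of sequences the capitals mark AGGTCA or AGTTCA on either strand, and in the second pair they mark the bases at which Cyp3a25 and Cyp3a59 differ.
Cyp3a11 (chr5:145879805-145880104, minus strand): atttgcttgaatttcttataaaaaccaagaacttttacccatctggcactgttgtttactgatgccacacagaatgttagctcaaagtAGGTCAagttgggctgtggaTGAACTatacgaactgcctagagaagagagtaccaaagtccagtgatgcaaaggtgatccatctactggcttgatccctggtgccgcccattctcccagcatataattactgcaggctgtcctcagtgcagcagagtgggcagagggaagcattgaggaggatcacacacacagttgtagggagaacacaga
Cyp3a13 (chr5:137921570-137921869, minus strand): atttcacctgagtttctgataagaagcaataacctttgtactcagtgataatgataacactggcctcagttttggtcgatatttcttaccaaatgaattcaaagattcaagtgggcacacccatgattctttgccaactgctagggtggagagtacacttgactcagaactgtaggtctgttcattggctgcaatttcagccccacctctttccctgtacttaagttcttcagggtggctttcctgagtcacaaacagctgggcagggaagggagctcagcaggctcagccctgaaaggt
Cyp3a25 (chr5:146009568-146009867, minus strand): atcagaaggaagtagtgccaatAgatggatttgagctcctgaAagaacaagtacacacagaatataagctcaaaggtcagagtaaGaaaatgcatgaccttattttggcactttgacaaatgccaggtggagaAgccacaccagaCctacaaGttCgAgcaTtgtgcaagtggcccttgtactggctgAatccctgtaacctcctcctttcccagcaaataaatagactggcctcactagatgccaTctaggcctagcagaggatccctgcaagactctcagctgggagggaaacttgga
Cyp3a59 (chr5:146079008-146079307, plus strand): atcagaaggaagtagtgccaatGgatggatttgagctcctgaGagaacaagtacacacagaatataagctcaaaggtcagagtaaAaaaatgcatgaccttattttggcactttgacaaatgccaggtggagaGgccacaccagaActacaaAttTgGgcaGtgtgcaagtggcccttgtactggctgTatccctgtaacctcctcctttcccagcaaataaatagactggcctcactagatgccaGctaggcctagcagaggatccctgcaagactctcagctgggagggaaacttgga

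The Cyp3a25 and Cyp3a59 promoters were alike at 289 of 300 bases (96.3%), while that of Cyp3a11 was alike to either at 37.3% of bases. AGGTCA stood 162 bases before the start in Cyp3a11, and in both Cyp3a25 and Cyp3a59 it stood 177 bases before the start and, on the opposite strand, 156 bases before it. AGTTCA stood on the opposite strand 142 bases before the start of Cyp3a11. Neither half-site was found in the Cyp3a13 window. Of the members under 1 CPM, Cyp3a44 held AGGTCA, Cyp3a41a held AGTTCA and Cyp3a16 held neither. Cyp3a16 also had fewer counts in GF, with 82 in SPF WT, 125 in SPF LKO, 22 in GF WT and 0 in GF LKO. The presence of a half-site thus did not follow the fall in GF over the 7 genes. Neither CACGTG nor TTATGNAA was found in any of the 7 windows. Of 32851 mouse promoters of this length, searched on both strands, 16.3% held AGGTCA, 14.0% AGTTCA, 7.15% CACGTG and 3.38% TTATGNAA, so these matches are a description of the letters and not of binding.

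The libraries held 17369927 to 22076113 assigned counts, with a median of 19106725. 4 libraries stood apart from their labels and are named here before the results, with the main values that rest on them given with and without them. Among 100 genes with the smallest p between GF LKO and GF WT, the libraries labelled SPF LKO ZT14 replicate 2 and SPF LKO ZT18 replicate 1 were nearer to the SPF WT median for 97 and 98 genes, against 0 to 10 genes nearer to the other genotype in 33 other SPF libraries. Among 100 genes with the smallest p between GF LKO and SPF LKO, the libraries labelled GF WT ZT6 replicate 3 and SPF WT ZT14 replicate 3 were nearer to the other microbial status for 76 and 50 genes, against 3 to 26 in the other 34 WT libraries. The hour of 2 of them also stood apart by Nr1d1, a clock gene that is high by day. The library labelled SPF WT ZT14 replicate 3 had 84.8 CPM of Nr1d1, where the other SPF WT libraries of ZT14 had 8.55 and 3.07 CPM and those of ZT6 had 56.9 to 71.7 CPM. The library labelled GF WT ZT6 replicate 3 had 9.39 CPM, where the other GF WT libraries of ZT6 had 51.1 and 49.1 CPM and those of ZT14 had 4.94 to 6.55 CPM. Whether labels had been exchanged was not tested, and the rhythm results rest on these hours. Arntl, the gene of BMAL1, was counted over all of its exons and not only over the deleted part. Over all ZT its levels overlapped between the genotypes. They ran from 0.626 to 39.5 CPM in SPF WT and from 8.52 to 29.3 CPM in SPF LKO. In GF WT they ran from 0.332 to 41 CPM, and in GF LKO from 7.06 to 13.4 CPM. At ZT10 and ZT22, where none of the 4 libraries lies, the genotypes did not overlap. At ZT10 Arntl was lower in WT, with 0.626 to 1.8 CPM in SPF WT and 8.52 to 9.4 CPM in SPF LKO. The GF values there were 0.332 to 0.977 CPM in WT and 7.39 to 9.5 CPM in LKO. At ZT22 it was higher in WT, with at least 33.7 CPM in SPF WT and at most 16.8 CPM in SPF LKO. The GF limits there were 33.9 and 13.4 CPM. Hepatocyte markers were present in every group, but their summed level had medians of 104000 and 57700 CPM in SPF WT and SPF LKO, and 115000 and 54200 CPM in GF WT and GF LKO. Most of this was Alb, whose median was 87100, 40500, 93900 and 32700 CPM. Tat was also lower in LKO (2040, 1470, 2460 and 2070 CPM), Ttr had 5590, 5910, 5960 and 5920 CPM, and Apoa1 and Serpina1c had higher medians in LKO. The summed cholangiocyte markers had medians of 54.8, 78.9, 38.8 and 90.3 CPM, of which Spp1 made up most (45.6, 63.8, 30.1 and 81.7 CPM). Sox9 was also higher in LKO (3.92, 11.3, 3.61 and 6.72 CPM). Krt19, Krt7 and Epcam had lower medians in SPF LKO than in SPF WT. In GF LKO the medians of Krt19 and Epcam were higher than in GF WT, and that of Krt7 was lower. Medians of the 4 groups ran from 181 to 245 CPM for Kupffer cells, 139 to 169 for endothelium, 277 to 379 for stellate cells, 1.61 to 2.29 for T and B cells, 10500 to 11200 for pericentral and 4240 to 5070 for periportal hepatocytes. Cyp2e1 made up most of the pericentral sum (7900, 7860, 8270 and 7670 CPM), and single zonal markers moved in both directions. Of the pericentral markers, Oat was higher in LKO (1010, 1890, 1070 and 1600 CPM) and Slc1a2 lower (235, 143, 193 and 127 CPM). Of the periportal markers, Gls2 was higher (314, 360, 329 and 426 CPM) and Hsd17b13 lower (444, 347, 391 and 257 CPM). Of 5 markers of small intestine, another site of Cyp3a expression, Fabp2 made up nearly all of the sum, and Sis and Alpi were at 0 in every SPF WT, SPF LKO and GF LKO library. The part of these marker changes in the results was not tested, and in bulk liver fewer cells of a type and less RNA per cell cannot be told apart.

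Cyp3a11 was the member with the widest range, and its response to the loss of hepatic Bmal1 depended on the microbiota. Levels are given below as CPM scaled by the trimmed mean of M-values. In SPF WT the 18 libraries had a lowest level of 370.5, a median of 5193 and a highest level of 7379 CPM, and in SPF LKO they had 4563, 6066 and 8083 CPM. In GF WT the values were 519.8, 633.8 and 6137 CPM, and in GF LKO 120.0, 171.9 and 347.2 CPM. The lowest SPF WT value was that of the library labelled SPF WT ZT14 replicate 3, and the highest GF WT value was that of the library labelled GF WT ZT6 replicate 3. When the 4 libraries were left out, SPF WT began at 4270 CPM and GF WT ended at 1122 CPM, so that SPF WT and SPF LKO overlapped almost wholly, GF WT lay below both, and GF LKO lay below GF WT with no overlap.

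**Figure D1:**
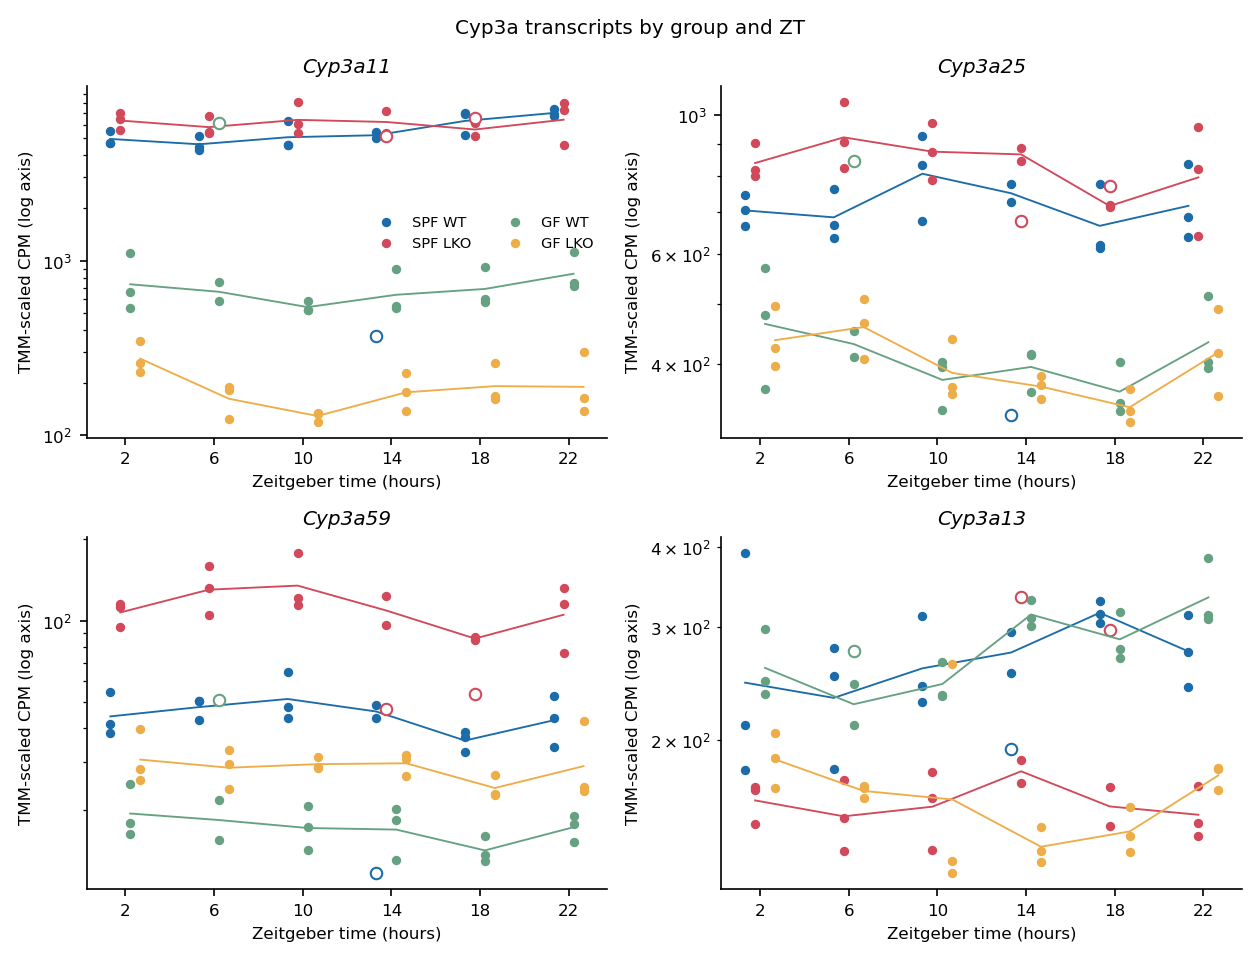
Level of the 4 members in each library (TMM-scaled CPM, log axis) against ZT in hours, by group; filled points are libraries, open points the 4 libraries that stood apart from their labels, and lines join the geometric means without those 4. The medians of Cyp3a11 are 5193 CPM in SPF WT, 6066 in SPF LKO, 633.8 in GF WT and 171.9 in GF LKO. Cyp3a13 has a lower median in LKO than in WT in both microbial states, with ranges that overlap.

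In edgeR's quasi-likelihood test over all ZT with Benjamini-Hochberg adjustment, Cyp3a11 did not pass the threshold between SPF LKO and SPF WT (log2 fold change 0.22 ± 0.17, SE, adjusted p = 0.37). That value was 0.15 ± 0.09 without the 4 libraries (adjusted p = 0.19). In germ-free mice Cyp3a11 was 5.21-fold lower in LKO than in WT (log2 -2.38 ± 0.28, adjusted p = 7.1e-09). It was 3.64-fold lower without the 4 libraries (-1.87 ± 0.14, adjusted p = 2.0e-13). The genotype effect in GF minus that in SPF was tested as an interaction and came to -2.61 ± 0.32 on the log2 scale (adjusted p = 1.8e-07), or -2.03 ± 0.17 (adjusted p = 2.4e-14) without the 4 libraries. Cyp3a11 thus fell with loss of hepatic Bmal1 in the absence of a microbiota, and the 2 genotype effects differed by the test of the difference itself.

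Cyp3a11 also fell with absence of the microbiota in both genotypes. GF WT was 5.37-fold below SPF WT (-2.42 ± 0.30, adjusted p = 4.0e-07), and 8.09-fold below it without the 4 libraries (-3.02 ± 0.12, adjusted p = 1.6e-20). GF LKO was 32.3-fold below SPF LKO (-5.01 ± 0.14, adjusted p = 3.2e-27), with 32.6-fold without the 4 libraries. The 2 comparisons of genotype and the 2 of microbial status use the same 4 groups and are not independent of each other.

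At ZT10, where none of the 4 libraries lies, the levels of Cyp3a11 were 6272, 4582 and 4562 CPM in SPF WT and 6013, 5363 and 8083 CPM in SPF LKO. They were 519.8, 524.7 and 584.4 CPM in GF WT and 120.0, 133.2 and 135.0 CPM in GF LKO. The SPF groups overlapped, and the GF groups lay apart from them and from each other. The genotype effect at ZT10 was 0.33 ± 0.16 in SPF (adjusted p = 0.22) and -2.06 ± 0.17 in GF (adjusted p = 1.3e-06), and their difference of -2.39 ± 0.23 passed the test (adjusted p = 7.5e-04). Cyp3a11 was the single gene that edgeR called for that difference at ZT10, and DESeq2 called 15 genes, Cyp3a11 among them.

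At single times the fall of Cyp3a11 in GF LKO against GF WT was called at ZT2 (-1.46 ± 0.24), ZT6, ZT10, ZT18 (-1.82 ± 0.23) and ZT22 (-2.09 ± 0.29). At ZT14 it was -1.87 ± 0.65 (adjusted p = 0.11), and once the SPF WT and SPF LKO libraries of ZT14 that stood apart had left the fit of that time it was -1.87 ± 0.22 (adjusted p = 1.4e-04). At ZT6 the GF WT livers had 753.1, 584.5 and 6137 CPM, and the change of -3.92 became -2.01 (adjusted p = 2.2e-05) without the third. The fall in GF WT against SPF WT was called at ZT2, ZT10, ZT18 and ZT22, from -2.72 to -3.26. At ZT6 it was -0.90 with all libraries (adjusted p = 0.39) and -2.80 without GF WT replicate 3 of that time (adjusted p = 1.2e-04). At ZT14, where SPF WT had 5010, 5434 and 370.5 CPM, it was -2.46 (adjusted p = 0.15) and -3.00 without those of the 4 libraries that lie at that time (adjusted p = 2.8e-04). In LKO livers the fall in GF against SPF was called at all 6 ZT, from -4.52 at ZT2 to -5.66 at ZT10. The interaction at the other 5 ZT ran from -1.73 to -4.24 and was not called by edgeR, whereas DESeq2 called it at ZT2, ZT18 and ZT22 as well as at ZT10. At ZT6 it was -2.34 ± 0.26 and called without the library named above (adjusted p = 0.0077).

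Cyp3a25, the next most abundant member by CPM, fell with absence of the microbiota in both genotypes. Its lowest, median and highest levels were 332.0, 696.8 and 925.3 CPM in SPF WT and 640.9, 822.1 and 1049 CPM in SPF LKO. In GF WT they were 337.6, 403.8 and 845.1 CPM, and in GF LKO 324.2, 390.1 and 509.5 CPM. The 2 extreme values, 332.0 in SPF WT and 845.1 in GF WT, again belonged to the libraries labelled SPF WT ZT14 replicate 3 and GF WT ZT6 replicate 3. Without the 4 libraries SPF WT began at 614.1 CPM and GF WT ended at 569.8 CPM, so SPF and GF did not overlap.

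Over all ZT, Cyp3a25 was 1.64-fold below SPF WT in GF WT (-0.71 ± 0.10, adjusted p = 2.9e-06) and 2.07-fold lower in GF LKO than in SPF LKO (-1.05 ± 0.06, adjusted p = 2.8e-15). These were 1.79-fold and 2.10-fold without the 4 libraries. Loss of Bmal1 raised it 1.18-fold in SPF (0.24 ± 0.08, adjusted p = 0.026), and 1.16-fold without the 4 libraries (0.22 ± 0.06, adjusted p = 0.0068), a call that in the full set was lost without any one of the replicate numbers 1, 2 and 3 (0.15 to 0.30, adjusted p = 0.063 to 0.20). In GF the value was -0.10 ± 0.09 (adjusted p = 0.42). The interaction was -0.35 ± 0.12 and did not pass (adjusted p = 0.32). At single times the fall in GF was called at ZT2, ZT10 and ZT18 in WT and at ZT2, ZT10, ZT18 and ZT22 in LKO, from -0.60 to -1.18. It was also called at ZT6 and ZT14 in both genotypes without the 4 libraries, and the rise in SPF LKO was called at ZT6 (0.43 ± 0.13, adjusted p = 0.048).

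Cyp3a59 rose with loss of Bmal1 and fell with absence of the microbiota. Its lowest, median and highest levels were 11.7, 43.69 and 64.49 CPM in SPF WT, 47.35, 113.3 and 177.0 CPM in SPF LKO, 13, 17.52 and 51.1 CPM in GF WT, and 22.66, 28.48 and 42.79 CPM in GF LKO. SPF LKO stood highest and GF WT lowest. With the 4 libraries left out, SPF LKO began at 75.99 CPM, above the highest SPF WT library at 64.49 CPM. The 2 SPF LKO libraries nearest to WT, at 47.35 and 53.74 CPM, were those labelled ZT14 replicate 2 and ZT18 replicate 1.

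The rise of Cyp3a59 in LKO was 2.49-fold in SPF (1.32 ± 0.15, adjusted p = 1.5e-08) and 1.52-fold in GF (0.60 ± 0.13, adjusted p = 3.2e-04). The 2 values were 2.55-fold and 1.68-fold without the 4 libraries. The fall in GF was 2.29-fold in WT (-1.20 ± 0.15, adjusted p = 5.9e-07) and 3.75-fold in LKO (-1.91 ± 0.12, adjusted p = 1.2e-14), or 2.65-fold and 4.0-fold without the 4 libraries. The genotype effect was smaller in GF by 0.73 ± 0.20 on the log2 scale, which did not pass with all libraries (adjusted p = 0.087) and passed without the 4 (-0.61 ± 0.13, adjusted p = 0.0087). The GF rise was lost without the mice numbered 2 (0.40, adjusted p = 0.082).

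At ZT10 the levels of Cyp3a59 were 64.49, 48.02 and 43.83 CPM in SPF WT and 120.8, 114.3 and 177.0 CPM in SPF LKO, and 14.19, 20.61 and 17.29 CPM in GF WT and 28.65, 31.32 and 28.73 CPM in GF LKO. The 4 groups did not overlap at that time, and both genotype effects were called (1.40 ± 0.18, adjusted p = 1.3e-04 in SPF, and 0.78 ± 0.19, adjusted p = 0.012 in GF). The rise in SPF LKO was also called at ZT2, ZT6 and ZT22, from 1.25 to 1.45, and that in GF LKO at ZT18 (0.79 ± 0.18, adjusted p = 0.017). In GF against SPF, Cyp3a59 fell at ZT2, ZT10, ZT18 and ZT22 in WT and at ZT2, ZT6, ZT10, ZT18 and ZT22 in LKO. When the 4 libraries were left out, the rise was also called at ZT14 and ZT18 in SPF and at ZT14 in GF, and the fall at ZT6 and ZT14 in WT and at ZT14 in LKO.

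Cyp3a25 and Cyp3a59, the pair with nearly the same promoter, did not change in proportion. Per 100 counts of Cyp3a25 the libraries held a median of 6.26 counts of Cyp3a59 in SPF WT, 12.9 in SPF LKO, 4.28 in GF WT and 7.13 in GF LKO. The range was 3.53 to 7.95 in SPF WT and 6.97 to 18.2 in SPF LKO, or 11.4 to 18.2 in SPF LKO without the 4 libraries. It was 3.63 to 6.05 in GF WT and 5.65 to 8.75 in GF LKO. The ratio was therefore higher in LKO in both microbial states, and once the 4 libraries were left out, which took the top of GF WT to 5.11, WT and LKO did not overlap in either. These ratios are a description, and no test was made of them.

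**Figure D2:**
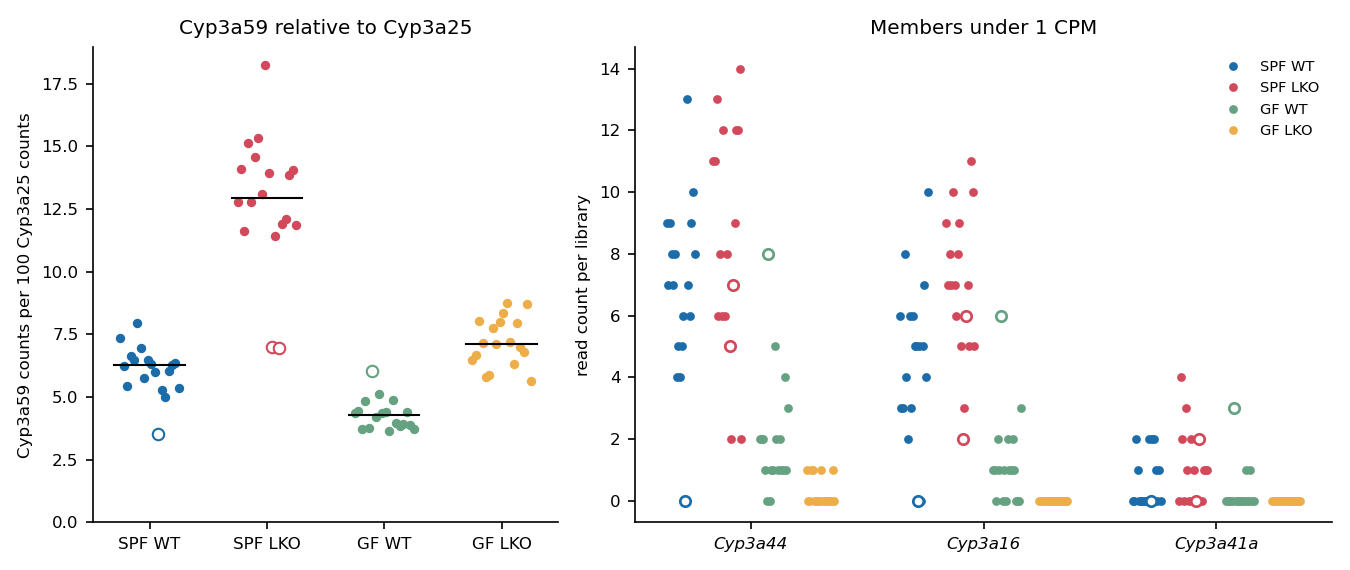
Cyp3a59 counts per 100 Cyp3a25 counts in each library by group on the left (points are libraries, open points the 4 libraries that stood apart, black lines medians over all 18), and read counts of Cyp3a44, Cyp3a16 and Cyp3a41a in each library on the right. The ratio has its highest median, 12.9, in SPF LKO, and every GF LKO library has 0 counts of Cyp3a16 and Cyp3a41a.

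Cyp3a13, the member outside the cluster, fell with loss of Bmal1 in both microbial states, and over all ZT neither of its comparisons of microbial status passed edgeR's test. Its lowest, median and highest levels were 180.2, 264.5 and 390.9 CPM in SPF WT and 134.5, 168.4 and 334.3 CPM in SPF LKO. In GF WT they were 211.7, 276.5 and 384.2 CPM, and in GF LKO 124.3, 165.1 and 263.2 CPM. The ranges of WT and LKO thus overlapped in both microbial states. The 2 highest SPF LKO values were 334.3 CPM at ZT14 and 297.4 CPM at ZT18, in the 2 SPF LKO libraries that stood apart from their labels. Without them the SPF LKO livers ended at 186.6 CPM, and 2 mice of SPF WT, at 180.2 and 180.4 CPM, lay within their range.

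Loss of Bmal1 lowered Cyp3a13 by 1.51-fold in SPF (-0.60 ± 0.11, adjusted p = 7.7e-05), by 1.70-fold there without the 4 libraries (-0.77 ± 0.08, adjusted p = 1.2e-09), and by 1.71-fold in GF (-0.77 ± 0.08, adjusted p = 9.6e-10). Absence of the microbiota gave 0.05 ± 0.09 in WT (adjusted p = 0.68) and -0.11 ± 0.10 in LKO (adjusted p = 0.42), and the interaction was -0.18 ± 0.14 (adjusted p = 0.96). At single times the fall in LKO was called at ZT6 and ZT22 in SPF, and in GF at ZT6, ZT14 (-1.20 ± 0.22), ZT18 and ZT22. Without the 4 libraries it was also called at ZT14 and ZT18 in SPF (-0.62 ± 0.12 and -0.98 ± 0.12), and the call at ZT6 in GF was lost (-0.45 ± 0.16, adjusted p = 0.11). For microbial status at single times edgeR called Cyp3a13 at no ZT, and DESeq2 called it at ZT14 in GF LKO against SPF LKO.

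**Figure D3:**
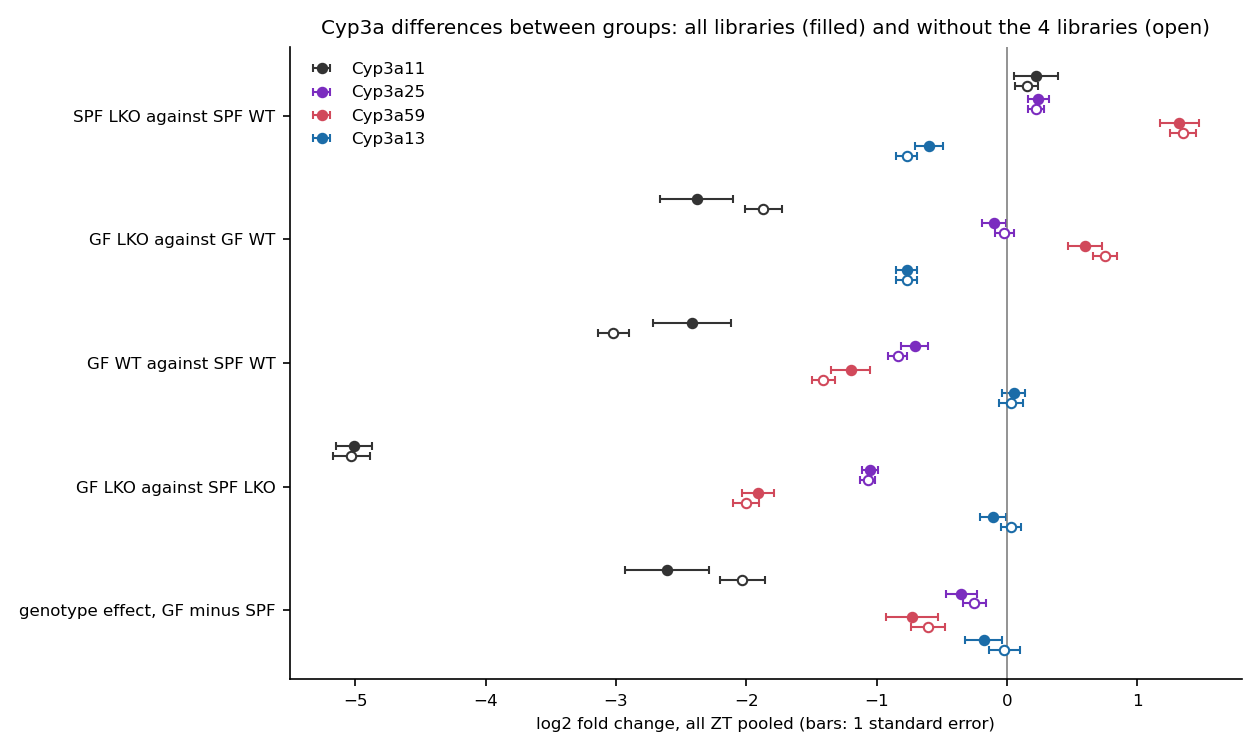
Log2 fold change of each member over all ZT in the 4 pairs of groups and in the interaction (filled points, all libraries; open points, without the 4 libraries; bars, 1 SE). Cyp3a11 lies at -5.01 in GF LKO against SPF LKO, and Cyp3a13 and Cyp3a59 change with genotype in opposite directions.

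Counted over the family, 3 of the 4 members passed the test over all ZT in each of the 4 pairs of groups. The share of all genes tested that passed was 23.1% in SPF LKO against SPF WT, 30.8% in GF LKO against GF WT, 31.8% in GF WT against SPF WT and 36.4% in GF LKO against SPF LKO. For the interaction 1 of 4 members passed, Cyp3a11, against 0.438% of all genes. Without the 4 libraries the counts were again 3 in each pair, against 27.9%, 30.1%, 32% and 36.7% of all genes, and 2 for the interaction, against 0.356%.

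At single times there were 24 tests of a member in each comparison. In SPF LKO against SPF WT 6 of them passed, 4 higher and 2 lower, and at ZT2, ZT6, ZT10, ZT14, ZT18 and ZT22 the share of all genes that passed was 6.89%, 7.26%, 11.9%, 0%, 0.015% and 3.31%. At ZT14 that 0 was edgeR's count, with 1484 genes at an unadjusted p under 0.05 and 126 calls by DESeq2. In GF LKO against GF WT 11 passed, 2 higher and 9 lower, where 4.21%, 11.7%, 13.1%, 6.1%, 8.43% and 4.44% of all genes passed. In GF WT against SPF WT 11 passed, all lower, where 10.1%, 2.62%, 2.89%, 0.0751%, 0.983% and 0.516% of all genes passed. In GF LKO against SPF LKO 15 passed, all lower, where 8.92%, 0.309%, 0.982%, 0.0601%, 3.71% and 2.25% of all genes passed. For the interaction 1 passed, where 0.0221%, 0%, 0.00744%, 0%, 0% and 0.0147% of all genes passed. At ZT6, ZT14 and ZT18, where edgeR called 0 genes for the interaction, 774, 713 and 1152 genes were below 0.05 before adjustment, and the calls of DESeq2 numbered 7, 0 and 38. The 4 libraries lie at ZT6, ZT14 and ZT18, and without them 11, 12, 17, 18 and 2 of the 24 tests passed in the 5 comparisons in the order above. At these 3 times 13944, 13485 and 13547 genes were then tested. Of them 1452, 743 and 627 passed in SPF LKO against SPF WT, and 1351, 1839 and 1492 in GF LKO against GF WT. In GF WT against SPF WT 514, 313 and 249 passed, and in GF LKO against SPF LKO 385, 102 and 61. For the interaction 1, 0 and 0 passed.

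**Figure D4:**
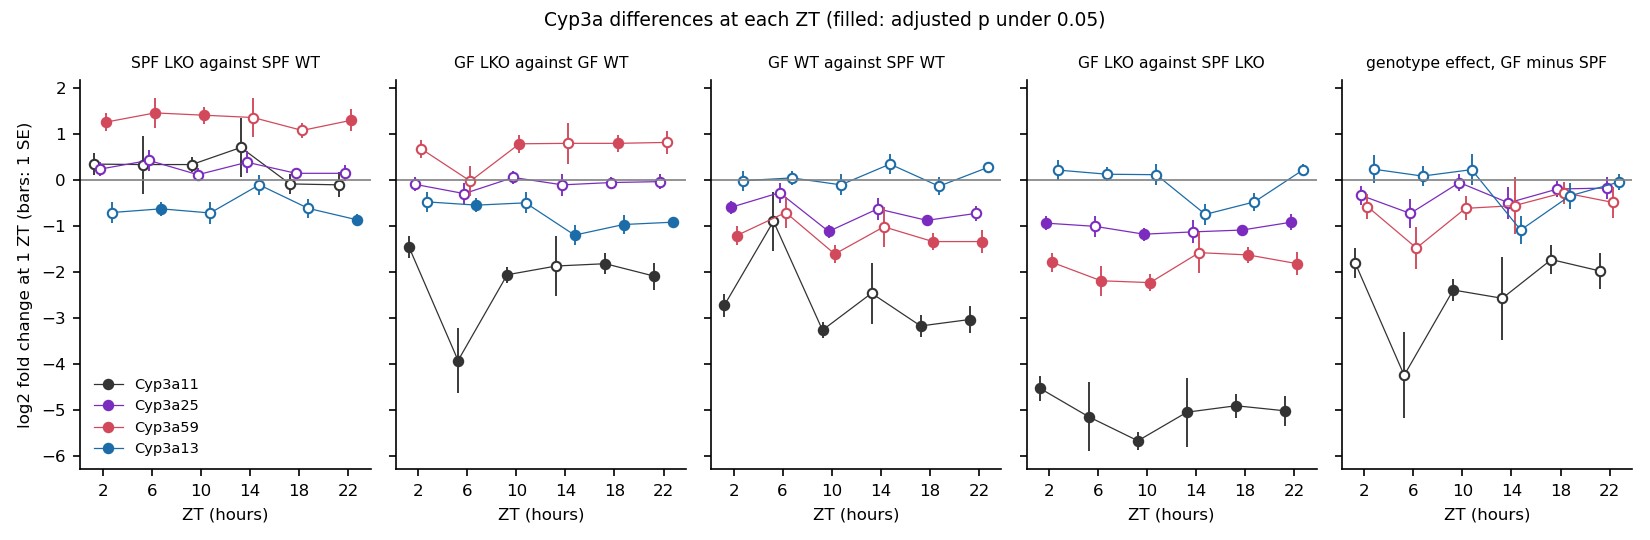
Log2 fold change of each member at each ZT in hours, by comparison (filled points, adjusted p under 0.05; open points, not called; bars, 1 SE; all libraries). Cyp3a11 lies between -0.11 and 0.70 in SPF LKO against SPF WT and between -1.46 and -3.92 in GF LKO against GF WT.

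Between 0 and 2 of the 4 members passed the test for a 24 h rhythm in each group. With 4 members, no difference from the share of all genes can be read from these counts. By a cosine curve with a period of 24 h, 0 of 4 members passed in SPF WT (15% of all genes), 0 in SPF LKO (21.2%), 1 in GF WT (26.7%) and 2 in GF LKO (35%). The number with an unadjusted p under 0.05 was 0, 3, 4 and 2, and DESeq2 called 0, 1, 2 and 1. With the 4 libraries left out, none of which is GF LKO, the number at an unadjusted p under 0.05 was 2, 1 and 1 in the other 3 groups. In GF WT Cyp3a13 varied 1.34-fold from peak to trough with a peak at 18.9 h (adjusted p = 0.026). In GF LKO Cyp3a11 varied 1.69-fold with a peak at 23.1 h (adjusted p = 0.047), and Cyp3a25 varied 1.3-fold with a peak at 3.8 h (adjusted p = 0.015). Without the 4 libraries Cyp3a11 also passed in SPF WT (1.43-fold, peak at 19.5 h, adjusted p = 0.023).

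A rhythm that passed in 1 group and not in another was tested for the difference. No member passed for SPF LKO against SPF WT (1.02% of all genes), GF LKO against GF WT (5.81%), GF WT against SPF WT (0.0355%) or GF LKO against SPF LKO (4.45%). In these 4 pairs edgeR gave 0, 1, 0 and 1 members at an unadjusted p under 0.05, and DESeq2 called 0, 1, 0 and 1. The member was Cyp3a13 in each case. Its adjusted p in edgeR was 0.057 for GF LKO against GF WT, and 0.046 without the 4 libraries.

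Per kilobase of transcript, the make-up of the family turned over between the groups. Levels between genes are compared here as CPM per kb of exon, with the lengths of the table. The sum of the 4 members had a median of 1480 CPM per kb in SPF WT, 1660 in SPF LKO, 432 in GF WT and 288 in GF LKO. Cyp3a11 was a median of 68.7% of that sum in SPF WT, 70.5% in SPF LKO, 29.8% in GF WT and 11.5% in GF LKO. Cyp3a25 was 24.3%, 22.8%, 45.8% and 65.2% of it. Thus Cyp3a11 led in both SPF groups, and Cyp3a25 led in both GF groups. The table's length of Cyp3a11 is 5093 bases and includes a transcript with a retained intron. With its coding transcript of 2344 bases its share was 82.7%, 83.8%, 48% and 22.1%, which leaves it ahead of Cyp3a25 (34.3%) in GF WT, so that order depends on the length used. In GF LKO Cyp3a25 led with either length.

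The 3 members under 1 CPM are given by their counts and were not tested. Cyp3a44 had 125 counts over the 18 SPF WT libraries, 149 in SPF LKO, 37 in GF WT and 5 in GF LKO. Cyp3a16 had 82, 125, 22 and 0 counts, and Cyp3a41a had 11, 20, 5 and 0. Each of the 3 thus stood in the same order of groups as the medians of Cyp3a11, highest in SPF LKO and lowest in GF LKO. This did not hold for every Cyp3a gene outside the members. Cyp3a57 had 24 counts in SPF WT, 43 in SPF LKO, 21 in GF WT and 30 in GF LKO. In the same order Cyp3a63-ps had 23, 38, 5 and 1 counts, Cyp3a41b 4, 2, 3 and 0, and Cyp3a61-ps1 0, 2, 0 and 1. From the counts scaled to the summed depth of each group, Cyp3a16 in GF LKO was at least 7.24-fold lower than in GF WT and at least 39.1-fold lower than in SPF LKO, with the 0 set to a floor of 3 counts over the group. The first of these was at least 5.58-fold without the 4 libraries, since 6 of the 22 counts of GF WT lay in replicate 3 of ZT6. Cyp3a44 was 7.32-fold and 27.9-fold lower in the same comparisons. Of 50-base stretches, 6.13% of Cyp3a16 and 6.95% of Cyp3a44 also occur in Cyp3a11. Per 100000 Cyp3a11 counts Cyp3a16 had 4.38 and 5.15 counts in SPF WT and SPF LKO, and 7.2 and 0 in GF WT and GF LKO. In the same order Cyp3a44 had 6.68, 6.14, 12.1 and 7.74 counts, and Cyp3a41a had 0.588, 0.824, 1.64 and 0. The part of Cyp3a11 reads in the counts of these 3 members was not tested.

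The genes with the pattern most like each member were named by Spearman's rho over the 24 means of a group and ZT, among 11854 genes with a mean of at least 1 CPM. For Cyp3a11 they were Ces2a, a carboxylesterase (0.952), Csad, an enzyme of taurine synthesis (0.895), and Dse (0.870). For Cyp3a13 they were the glutathione S-transferase Gsta3 (0.940), the interleukin receptor subunit Il1rap (0.934) and Ten1 (0.924). For Cyp3a25 they were Gm39469 (0.902), Eml5 (0.865) and Plekhg5 (0.861), and for Cyp3a59 the epoxide hydrolase Ephx1 (0.906), Ncapd3 (0.898) and Dkk3 (0.897). Among the members themselves rho was 0.872 for Cyp3a25 with Cyp3a59, 0.839 for Cyp3a11 with Cyp3a25 and 0.126 for Cyp3a11 with Cyp3a13. The points share their libraries and groups, and these values are a description.

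Genes around the family were read from lists. Of 22 known regulators of Cyp3a that could be tested, 0 rose and 6 fell in SPF LKO against SPF WT, and 1 rose and 7 fell in GF LKO against GF WT, where 11.6% of all genes rose and 11.5% fell in SPF and 15.6% rose and 15.2% fell in GF. Their median log2 change was -0.15 and -0.22, against -0.01 and 0.01 over all genes. Nr1i2 (PXR) fell in LKO by 0.35 in SPF (adjusted p = 0.0031) and by 0.43 in GF (adjusted p = 1.1e-06) on the log2 scale. Nr1i3 (CAR) fell by 0.66 (adjusted p = 3.7e-04) and 0.60 (adjusted p = 2.9e-06). Both receptors were thus lower in LKO in either microbial state. In GF WT against SPF WT 1 regulator rose and 1 fell (14.2% and 17.7% of all genes), and Nr1i2 had an adjusted p of 0.99. In GF LKO against SPF LKO 1 rose and 5 fell (18.1% and 18.4% of all genes). No regulator passed for the interaction, for which 0.119% of all genes rose and 0.319% fell.

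Of 14 genes for electron transfer to P450 enzymes and heme supply, 1 rose and 3 fell in SPF LKO against SPF WT (11.6% and 11.5% of all genes), and 2 rose and 7 fell in GF LKO against GF WT (15.6% and 15.2%). Por, the P450 oxidoreductase itself, fell by 1.04 (adjusted p = 0.0013) in SPF and by 1.93 (adjusted p = 1.2e-07) in GF. In GF against SPF, 5 rose and 1 fell in WT (14.2% and 17.7% of all genes), and 4 rose and 5 fell in LKO (18.1% and 18.4%). None passed for the interaction (0.119% of all genes rose and 0.319% fell).

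Of 25 target genes of PXR and CAR outside the family, 11 rose and 8 fell among 22 tested in SPF LKO against SPF WT (11.6% and 11.5% of all genes), and 10 rose and 10 fell among 22 in GF LKO against GF WT (15.6% and 15.2%). Among 23 tested in GF WT against SPF WT 5 rose and 5 fell (14.2% and 17.7% of all genes), and among 21 in GF LKO against SPF LKO 4 rose and 11 fell (18.1% and 18.4%). For the interaction 3 of 23 fell, namely Ces2a (-0.47, adjusted p = 0.0023), Cyp2a5 (-1.72, adjusted p = 0.027) and Ugt1a9 (-1.63, adjusted p = 0.0031). Of all genes 0.119% rose and 0.319% fell for the interaction. Cyp2b10, the classical CAR target, rose in LKO by 1.56 in SPF (adjusted p = 6.7e-05) and by 1.56 in GF (adjusted p = 1.7e-05) and had an interaction of -0.01. Ces2a, the gene closest to Cyp3a11 in pattern, fell in GF LKO against GF WT by 0.34 (adjusted p = 9.2e-05) and had 0.12 in SPF LKO against SPF WT (adjusted p = 0.18).

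Mouse Cyp3a16, Cyp3a41a and Cyp3a44 are known as forms of female or young liver, and all livers here were male. Of 15 male-biased liver genes, 6 rose and 4 fell in SPF LKO against SPF WT, 7 rose and 3 fell in GF LKO against GF WT, 9 rose and 1 fell in GF WT against SPF WT, and 11 rose and 0 fell in GF LKO against SPF LKO. In the same order 11.6%, 15.6%, 14.2% and 18.1% of all genes rose and 11.5%, 15.2%, 17.7% and 18.4% fell, which holds for the next list too. Of 15 female-biased genes few could be tested: 0 rose and 3 fell among 5 in SPF LKO against SPF WT, 0 rose and 4 fell among 6 in GF LKO against GF WT, 2 rose and 0 fell among 6 in GF WT against SPF WT, and 0 rose and 1 fell among 4 in GF LKO against SPF LKO. Cyp2b9, Cyp2b13 and Sult2a1 stood in this list and in that of PXR and CAR targets. For the interaction none of the male-biased and 1 of 6 female-biased genes tested passed, where 0.119% of all genes rose and 0.319% fell.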

How the data were processed

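Poly(A) RNA of 72 mouse livers had been sequenced by the authors as single-end reads on an Illumina instrument from stranded libraries. Per the labels and the methods, reads were aligned with STAR (2.6.1b) to the mouse genome and assigned to genes with featureCounts (2.0.0), and the authors deposited raw counts per gene for all libraries in 1 table. Its header shows that strand was not used and that reads with several hits or several genes were left out, so overlapping genes and near-identical copies are undercounted. Ensembl identifiers were matched to symbols for 55394 of 55573 genes, and the table held 0 value columns of samples not listed.

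Counts were tested with edgeR (4.0.16, R 4.3.3) by quasi-likelihood F tests with TMM scaling and filterByExpr, and p-values were adjusted by Benjamini-Hochberg over all genes tested. A call was an adjusted p under 0.05. Genotype, microbial status and their interaction were fitted over all ZT and at each ZT, and the SE of a log2 fold change was derived from the F statistic. Rhythm was tested with a cosine and a sine term of 24 h. Patterns were compared on log2 CPM with a prior count of 2. The tests were tried on simulated counts.

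The members, the gene lists and the 4 libraries left out in an alternative were chosen with earlier results of these data known. Members with a mean CPM of at least 1 were named and tested, those under it were given by counts, and the 3 genes most like each member were named. The lists were regulators of Cyp3a, electron transfer and heme supply, targets of PXR and CAR, male-biased and female-biased liver genes, and markers of cell types. Alternatives were DESeq2 (1.42.0), its size factors, no filter on low counts, ZT as a factor, a replicate block, and leaving out libraries. Total counts of 17369927 to 22076113 set the precision, and floors cover counting error only.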

Additional observations from a re-analysis of the deposited data

Results flagged for a closer look

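The genotype effect on Cyp3a11 differed between the germ-free and the conventional livers by the test of the interaction, which is why it is listed for a closer look. Over all ZT the difference was -2.61 on the log2 scale (edgeR adjusted p = 1.8e-07, 36 libraries in each microbial state), and at ZT10 it was -2.39 (edgeR adjusted p = 7.5e-04). In GF every LKO library lay below every WT library (347.2 CPM at most against 519.8 CPM at least). In SPF the 2 genotypes overlapped.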

How the results depend on the processing

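Over all ZT, the counts of 3 members called in each pair of groups stayed at 2 or 3 in each alternative that was run. The count for the interaction, 1 (Cyp3a11), became 2 with ZT as a factor, without the 4 libraries, and without SPF LKO ZT14 replicate 2, an alternative added after seeing the data; it was 1 to 2 when replicates or single libraries were left out. The added member was Cyp3a59. Member calls over the 6 ZT rose without the filter on low counts from 6 to 12 in SPF LKO against SPF WT, from 11 to 17 in GF LKO against GF WT, from 11 to 17 in GF WT against SPF WT and from 1 to 9 for the interaction. Without the 4 libraries they were 11 in the first, 17 in the third and 2 for the interaction, for which DESeq2 gave 4 and leaving out 1 library 1 to 2, with 2 without GF WT ZT6 replicate 3 or GF LKO ZT22 replicate 2. The cause was not tested.

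Rhythm calls also moved. In SPF WT 0 became 1 without the 4 libraries, and in SPF LKO 0 became 1 without the filter and by DESeq2. In GF WT 1 became 0 with ZT as 6 levels, 4 without the filter and 2 by DESeq2, with 0 to 1 when a replicate number was left out. In GF LKO 2 became 0 with 6 levels and 1 by DESeq2, with 0 to 2 when a replicate number was left out. For the difference in rhythm, 0 became 1 in GF LKO against GF WT without the filter, without the 4 libraries and by DESeq2, and in GF LKO against SPF LKO without the filter and by DESeq2. 3 values that were not called changed sign, namely Cyp3a25 in GF LKO against GF WT without replicate 3 (0.01, with -0.24 to 0.01 over the 3 numbers), Cyp3a13 in GF WT against SPF WT without replicate 3 (-0.05, with -0.05 to 0.14 over the 3) and Cyp3a13 in GF LKO against SPF LKO without the 4 libraries (0.03). DESeq2 gave no adjusted p for Cyp3a11 in GF LKO against GF WT over all ZT.

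On average over pairs of libraries, the replicate numbers did not pair the livers. Deviations from the group mean correlated by -0.002 on average between same-numbered libraries (108 pairs, 20 over 0.1) and by 0.001 between others. A pattern by number in a single gene was not tested. In GF WT, Cyp3a11 was highest in replicate 1 at ZT2, ZT14, ZT18 and ZT22, though not at ZT10. At ZT6 it was highest in replicate 3 (6137 CPM), a library that stood apart from its label. Replicates 1 and 2 of ZT6 had 753.1 and 584.5 CPM, so without that library replicate 1 was highest there too. With a replicate block the counts of members called over all ZT were 3, 3, 3, 3 and 1, and those over the 6 ZT were 6, 10, 10, 12 and 1. The block moved the rhythm calls in GF LKO from 2 to 1 and no other rhythm count.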
